A study of Mus musculus with 34 samples.

Results

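The homeobox genes of the 4 mouse Hox clusters, Hoxa on chromosome 6, Hoxb on chromosome 11, Hoxc on chromosome 15 and Hoxd on chromosome 2, were followed on 34 CpG island microarrays. A probe belonged to a Hox gene when the array design carried that gene's name. Of the 38 genes considered, 37 had at least 1 probe, 417 probes in all, and no probe carried the name Hoxa3. Probes no more than 500 bases apart were joined into islands, and islands with 3 or more probes on every array were scored. This gave 64 Hox islands of the 13616 islands on the array, with 3 to 15 probes each (median 5), while another 6 runs of Hox probes were too short, among them the only run of Hoxc6. The Hoxa cluster held 14 scored islands, Hoxb 18, Hoxc 16 and Hoxd 16. Of the 64, the array design placed 36 inside a gene, 22 in a promoter, 3 in a divergent promoter and 3 downstream. Where a gene has several islands they are numbered by position, so Hoxb3 (1) is the island of Hoxb3 with the lowest coordinate. Island positions are those of the array design, for which the sources used here name no genome build.

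The arrays measured DNA methylation by methylated DNA immunoprecipitation (mDIP), in which sonicated, denatured DNA is pulled down with a monoclonal antibody to 5-methylcytidine. The bound DNA was labelled with Cy5 and the input DNA with Cy3. Each probe's log ratio of bound over input was turned into a Z-score on its own array, and the island methylation score is the mean Z-score of an island's probes. A score of 0 is therefore the average probe of that array and not an absence of methylation, and a score above 0.75 is called high below. The arrays covered adult tissue (16 arrays, mice of 3 months, colon, pancreas, brain, kidney, liver, lung, muscle and spleen with 2 arrays each, of both sexes), whole embryos (5 arrays, 1 each at 8.5, 9.5, 10.5, 11.5 and 12.5 days) and undifferentiated embryonic stem (ES) cells (3 arrays, lines EB5, J1 and TT2). Differentiated ES cells had 5 arrays. These were embryoid bodies of TT2, grown as hanging drops without LIF, cells treated with retinoic acid, labelled TT2 (a legend of the study also names TT2, its methods J1), and endoderm (2 arrays) and mesoderm (1 array), which were sorted by flow cytometry from an EB5 reporter line grown with Activin A. Teratomas (2 arrays, labelled J1 although the methods name D3 and C4) had grown under the skin of NOD-SCID mice and can hold host tissue. Purified β cells of the pancreas, the β cell line Min6 and the α cell line aTC had 1 array each. The study's methods state that the mouse DNA came from C57Bl/6. The adult group averages 8 tissues, the embryo group 5 ages and the differentiated group 4 protocols. Nothing in the labels says that arrays of 1 group came from separate animals or cultures, so p-values measure the spread between these arrays, and a change in cell makeup cannot be told apart from a change within cells.

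Hox genes encode homeodomain transcription factors that give cells their position along the head to tail axis. Within each cluster the genes lie in the order in which they are expressed along that axis, so genes of low number (paralogue groups 1 to 3) act in the hindbrain and neck, groups 4 to 8 in the trunk, and groups 9 to 13 in the lower trunk, limb ends and genital region. In ES cells the clusters are covered by Polycomb repression, their CpG islands are known to be largely free of DNA methylation in early development, and many gain it in adult cells and in cultured or cancer cells.

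Before the results, several facts of the arrays bear on them. There were 23 slides, 16 scan days and 4 software versions, and no embryo array shared a slide, a scan day or a software version with an adult array. On the Hox probes, the input signal was well above background for 52.3 to 100% of probes per array and the bound signal for 46.7 to 99.8%. For 6 of the 8 tissues (brain, kidney, liver, lung, muscle and spleen) the 2 arrays of a label were unlike each other. Over 13240 autosomal islands their scores, as deviations from the mean adult array, correlated at -0.407 to -0.18 within a tissue, none of the 12 arrays was most like its own partner, and only the colon pair (0.602) and the pancreas pair (0.249) had a positive correlation. The array of an adult tissue is therefore called the array labelled with that tissue, and no label was changed. The embryos of 8.5 and 9.5 days, labelled male, had mean scores of 1.05 and 1.18 over 376 X-linked islands, inside the 0.914 to 1.88 of arrays labelled female and above the 0.151 to 0.293 of the other arrays labelled male. For ES line J1 the deposited scores and the scanner ratios correlated at 0.113, against 0.894 to 0.991 for the other arrays.

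The promoters below are shown because islands of these 6 genes carry differences described here and their CpG content ranges widely. The differences at Hoxa7 and Hoxb8 are not among the largest. Each run is the 250 bases before the RefSeq start of the gene (GRCm38.p6), written 5′ to 3′ on the strand of the gene, in lower case with each CpG, the site that can be methylated, in capitals. RefSeq entries were found for 22 of the 38 genes (24 promoters), and the genes Hoxb3 and Hoxa4 had none in the table used.
Hoxa2, chr6:52164832-52165081, minus strand: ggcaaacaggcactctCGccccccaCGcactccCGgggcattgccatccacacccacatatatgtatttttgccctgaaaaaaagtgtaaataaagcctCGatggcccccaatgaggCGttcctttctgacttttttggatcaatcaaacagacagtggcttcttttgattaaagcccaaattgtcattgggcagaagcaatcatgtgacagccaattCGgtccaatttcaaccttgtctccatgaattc
Hoxa5, chr6:52204588-52204837, minus strand: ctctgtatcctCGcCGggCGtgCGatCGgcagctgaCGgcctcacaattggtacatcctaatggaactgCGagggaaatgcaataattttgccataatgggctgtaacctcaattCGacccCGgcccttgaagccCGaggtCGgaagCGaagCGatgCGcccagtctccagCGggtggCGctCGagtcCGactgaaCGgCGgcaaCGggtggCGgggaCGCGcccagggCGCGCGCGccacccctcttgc
Hoxa7, chr6:52218574-52218823, minus strand: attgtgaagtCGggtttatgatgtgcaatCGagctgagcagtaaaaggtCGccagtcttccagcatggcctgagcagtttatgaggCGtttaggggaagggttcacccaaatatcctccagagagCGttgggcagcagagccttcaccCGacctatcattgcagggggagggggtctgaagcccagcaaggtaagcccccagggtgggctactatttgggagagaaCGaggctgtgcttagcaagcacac
Hoxb8, chr11:96281655-96281904, plus strand: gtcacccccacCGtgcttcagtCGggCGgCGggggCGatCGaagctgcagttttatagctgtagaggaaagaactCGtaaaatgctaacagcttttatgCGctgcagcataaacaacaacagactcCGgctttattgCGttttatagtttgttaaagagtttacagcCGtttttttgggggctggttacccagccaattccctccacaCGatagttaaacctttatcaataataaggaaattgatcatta
Hoxd12, chr2:74674763-74675012, plus strand: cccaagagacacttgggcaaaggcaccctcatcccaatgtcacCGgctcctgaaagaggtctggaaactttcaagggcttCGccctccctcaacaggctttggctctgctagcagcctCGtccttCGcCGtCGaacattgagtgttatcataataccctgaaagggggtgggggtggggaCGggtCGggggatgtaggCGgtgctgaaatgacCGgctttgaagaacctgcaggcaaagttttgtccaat
Hoxd13, chr2:74667975-74668224, plus strand: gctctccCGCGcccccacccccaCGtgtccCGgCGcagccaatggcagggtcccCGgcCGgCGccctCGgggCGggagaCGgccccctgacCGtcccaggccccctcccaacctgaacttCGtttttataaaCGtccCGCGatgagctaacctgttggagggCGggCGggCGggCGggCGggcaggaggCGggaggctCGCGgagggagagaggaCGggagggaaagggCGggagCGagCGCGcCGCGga
The Hoxa2 window held 6 CpGs, Hoxa7 7, Hoxd12 10, Hoxb8 12, Hoxa5 28 and Hoxd13 31. The motif counted was CG, which reads the same on both strands. It occurred in all 24 Hox promoter windows and in 92.1% of 32851 promoters of that length. The Hox windows held a median of 12.5 CpGs against 6 in all promoters, and 10 or more CpGs stood in 15 of the 24 (62.5%) against 37.8%. The coordinates of these windows and of the array's islands belong to different builds and are linked here only by the name of the gene.

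In adult tissue the Hox islands were neither uniformly low nor uniformly high. Only 6 of the 64 (9.38%) had a score below 0 on all 16 adult arrays, while 29.8% of all islands did, and 0 of 64 stayed above 0.75 on every adult array, against 7.37% of all islands. A high score on at least 1 adult array was seen at 31 Hox islands (48.4%, against 20.4% of all islands), and at 29 of them (45.3%, against 9.15%) another adult array was below 0. The mean scores were ordered as the paralogue numbers are. Islands of paralogue groups 1 to 3 averaged 0.589 ± 0.465 (SD over 16 arrays, 13 islands), islands of groups 4 to 8 averaged 0.154 ± 0.283 (22 islands) and islands of groups 9 to 13 averaged -0.235 ± 0.256 (29 islands). The mean of groups 1 to 3 was above that of groups 9 to 13 on each adult array, in spite of the wide spread between arrays, from -0.344 to 1.16 for groups 1 to 3 and from -0.531 to 0.189 for groups 9 to 13. By cluster the adult means were 0.0616 ± 0.319 for Hoxa, 0.25 ± 0.254 for Hoxb, -0.162 ± 0.35 for Hoxc and 0.0906 ± 0.375 for Hoxd (SD, n = 16), with ranges over the arrays that overlap. Over all islands the adult mean was 0.0455. Different islands are read by different probes, and these scores are not corrected for the melting temperature of a probe, so an order of levels between islands is one of scores and not shown to be one of methylation. In the authors' scores, which make that correction and cover 22 of the 64 islands, the adult means of the same 3 sets were 0.728, 0.12 and -0.255.

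**Figure D1:**
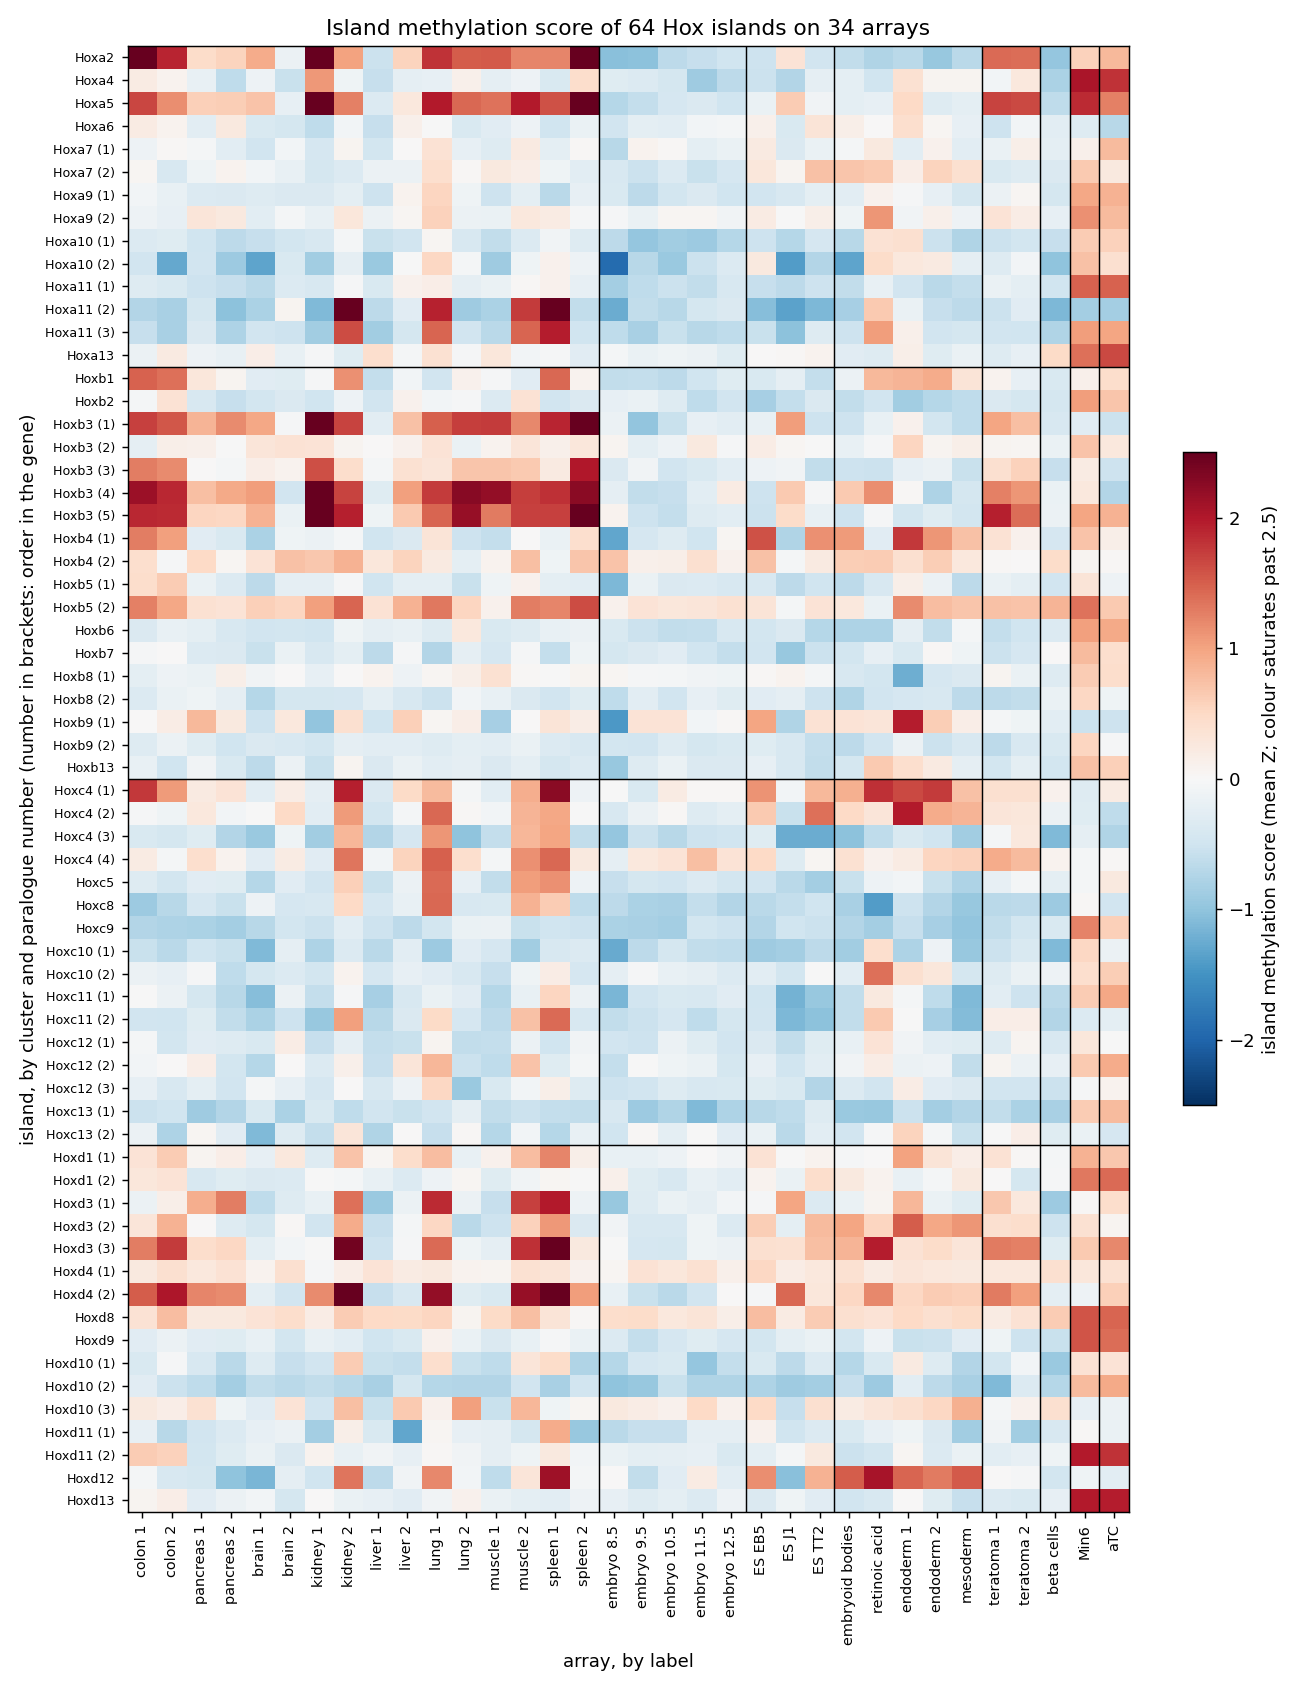
Island methylation score (mean Z, colour scale saturating past 2.5) of the 64 Hox islands (rows, by cluster and paralogue number) on 34 arrays (columns, by label), with lines between clusters and between groups. High scores in adult tissue lie mainly in rows of low paralogue number such as Hoxa2, Hoxa5 and Hoxb3, the 5 embryo columns are pale or blue almost throughout, and the Min6 and aTC columns are red at the high-numbered Hoxa and Hoxd rows.

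In each cluster the island with the highest adult mean belonged to a gene numbered 2 to 4, while the highest single score was 3.57, of Hoxa5 on kidney 1. Hoxb3 (4), inside a gene that patterns the hindbrain (chr11:96160091-96160505, 5 probes), ran from -0.476 to 2.52 on the adult arrays with a median of 1.74. Hoxa2, which gives the second pharyngeal arch its identity (chr6:52102001-52102457, 5 probes, divergent promoter), ran from -0.539 on the array labelled liver 1 through a median of 1.23 to 3.48 on kidney 1. At both, the arrays labelled liver 1 and brain 2 were the only adult arrays below 0. In the Hoxd cluster the highest mean was that of Hoxd4 (2), of a gene that acts at the neck (chr2:74528074-74528548, 5 probes), from -0.583 to 2.92 with a median of 1.18, and in the Hoxc cluster that of Hoxc4 (1), a promoter island of a neck vertebra gene (chr15:102855481-102855894, 5 probes), from -0.358 to 2.26 with a median of 0.291.

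The island with the lowest adult mean of a cluster belonged each time to a gene numbered 8 to 13. Hoxd10 (2), a promoter island of a gene that acts in the limb and the lower spinal cord (chr2:74492232-74492727, 6 probes), ran from -0.84 to -0.281 with a median of -0.654. Hoxc13 (1), in a gene needed for hair and nail (chr15:102749463-102750298, 6 probes), ran from -0.882 to -0.228 with a median of -0.552. Hoxa10 (2), a promoter island of a gene of the uterus and lower spine, averaged -0.465 but reached 0.522, and Hoxb8 (2), in a trunk gene, stayed between -0.706 and -0.0647. The 6 islands below 0 on all adult arrays were Hoxb8 (2), Hoxb9 (2), Hoxc9, Hoxc10 (1), Hoxc13 (1) and Hoxd10 (2), so all but 1 were of groups 9 to 13. High scores on at least 1 adult array occurred at 10 of 13 islands of groups 1 to 3, 13 of 22 of groups 4 to 8 and 8 of 29 of groups 9 to 13.

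**Figure D2:**
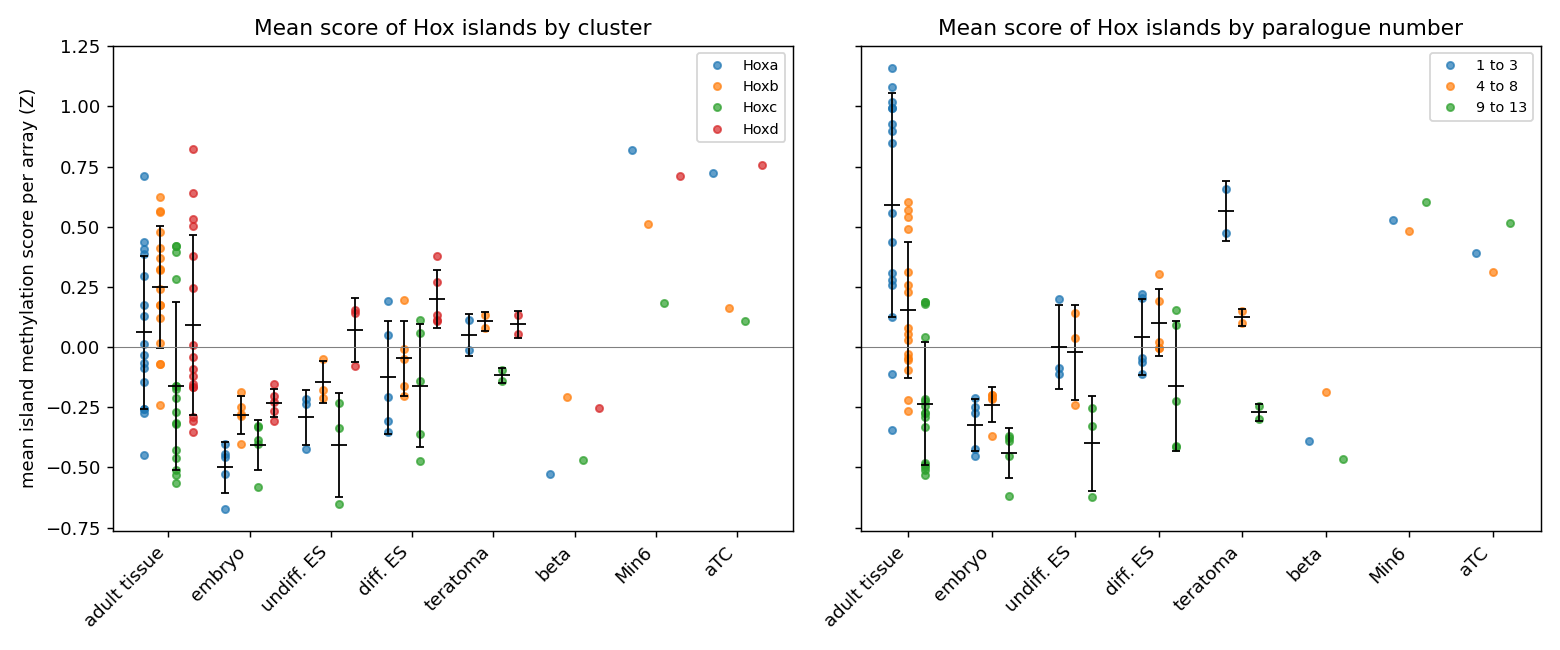
Mean island methylation score (Z) of the Hox islands on each array (points), with the mean and SD of each group of arrays where a group has more than 1, by cluster (left) and by paralogue number (right). In adult tissue groups 1 to 3 (mean 0.589) lie above groups 9 to 13 (-0.235), the embryos lie below 0 in every set, and Min6 lies above the β cells in every set.

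A set of adult arrays shared the high scores at many Hox islands. At 13 Hox islands (20.3%, against 0.323% of all islands) the 4 highest adult arrays were those labelled kidney 2, lung 1, muscle 2 and spleen 1. These islands were Hoxa11 (2), Hoxa11 (3), Hoxc4 (2), Hoxc4 (3), Hoxc4 (4), Hoxc5, Hoxc8, Hoxc11 (2), Hoxd1 (1), Hoxd3 (1), Hoxd4 (2), Hoxd10 (1) and Hoxd12, none of them in the Hoxb cluster. This set was chosen after its values were seen. Hoxa11 (2), a promoter island of a gene of the forearm and uterus (chr6:52178783-52179235, 5 probes), scored 2.53 on spleen 1, 2.51 on kidney 2, 1.92 on lung 1 and 1.75 on muscle 2, and no more than 0.073 on the other 12 adult arrays, down to -1.1. None of the 4 arrays shared its label with another of them, and the partners with the same tissue label, kidney 1, lung 2, muscle 1 and spleen 2, were all below 0 at this island.

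The arrays of differently labelled tissues were alike at the Hox islands too. After the mean of each replicate number was removed, the Hox scores of the array labelled kidney 1 correlated with those of spleen 2 at 0.944 over the 64 islands, spleen 1 with kidney 2 at 0.916, liver 1 with brain 2 at 0.871, lung 1 with muscle 2 at 0.795, muscle 1 with lung 2 at 0.725 and brain 1 with liver 2 at 0.574. Over all autosomal islands the same pairs stood at 0.694, 0.442, 0.518, 0.541, 0.416 and 0.503. These correlations are descriptions over islands. None of these pairs shares a slide or a scan day, while arrays of the same replicate number partly share slides. Over the Hox islands, as deviations from the mean adult array, none of the 12 arrays of these tissues was most like its partner of the same label. The liver pair (0.595) and the brain pair (0.277) correlated above 0 at these islands, the other 4 pairs at -0.614 to -0.399, the colon pair at 0.76 and the pancreas pair at 0.676. Values of single tissues other than colon and pancreas are therefore given by array.

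**Figure D3:**
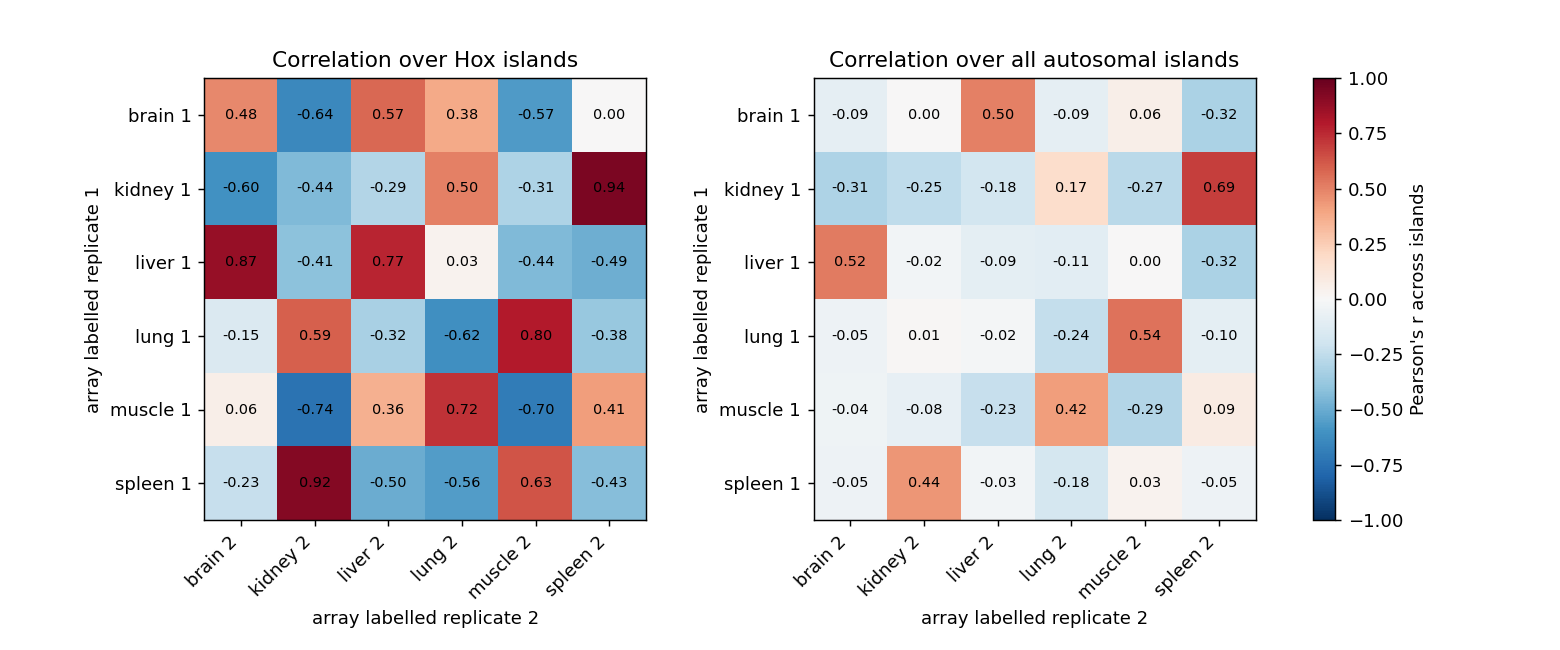
Pearson's r across islands between arrays labelled replicate 1 (rows) and replicate 2 (columns) of 6 adult tissues, after the mean of each replicate number was removed, over the Hox islands (left) and over all autosomal islands (right). The highest value of a row lies off the diagonal of equal labels in every row, with kidney 1 and spleen 2 at 0.944 over the Hox islands.

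The differences between tissues were tested as labelled. Across the 8 tissues limma called 0 of 64 Hox islands and 0.0808% of all islands at an adjusted p under 0.05, with 9 Hox islands (14.1%, against 3.95% of all islands) at an unadjusted p under 0.05. The same test without moderated variances called 0 after adjustment and 7 before it. Brain against the other 7 tissues gave 0 of 64 and 0.0% of all, with 7 Hox islands (against 4.0% of all islands) at an unadjusted p under 0.05 (0 and 2 without moderation) and a median difference of -0.244 over the Hox islands against 0.00554 over all islands. In these tests arrays that were not most like each other count as replicates for 6 of the 8 tissues, so the counts say nothing firm about tissues. The widest ranges of labelled tissue means were those of Hoxd4 (2) (2.47), Hoxa5 (2.44), Hoxa2 (2.25) and Hoxb3 (5) (2.13).

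Colon and pancreas, the tissues whose arrays were alike, were compared as a test added after the data were seen. Colon differed from pancreas at 14 of 64 Hox islands against 3.93% of all islands, higher in colon at 13 (2.34% of all islands) and lower at 1. Hoxa2 scored 2.62 and 1.9 in colon and 0.459 and 0.566 in pancreas, a difference of 1.75 (SE 0.222, adjusted p = 0.00182), and the arrays did not overlap. The other islands higher in colon were Hoxb4 (1) with a difference of 1.49, Hoxb3 (5) with 1.35, Hoxb3 (3) and Hoxb1 with 1.25 each, Hoxb3 (4), Hoxc4 (1), Hoxd3 (3), Hoxd11 (2), Hoxa5, Hoxb5 (1), Hoxb5 (2) and Hoxd1 (2), and all but Hoxd11 (2) belong to groups 1 to 5. Hoxd3 (1) was lower in colon by -1.09 (SE 0.19, adjusted p = 0.0106). The count fell to 0 without colon 1, to 1 without colon 2, and to 0 with log2 ratios centred on the median. Both colon arrays were scanned on a day with no pancreas array, so tissue and scan day cannot be told apart.

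The embryos carried little signal at the Hox islands. Of the 64, 43 (67.2%, against 47.3% of all islands) were below 0 on all 5 embryo arrays, and 1 (1.56%, against 13.5% of all islands) exceeded 0.75 on any of them, Hoxc4 (4) with 0.756. The cluster means in embryos were -0.5 ± 0.106 for Hoxa, -0.28 ± 0.079 for Hoxb, -0.405 ± 0.104 for Hoxc and -0.231 ± 0.0576 for Hoxd (SD, n = 5), while the mean of all islands was 0.053. Groups 1 to 3 averaged -0.322 ± 0.108, groups 4 to 8 averaged -0.239 ± 0.0739 and groups 9 to 13 averaged -0.441 ± 0.105, so the step between low and high numbers that adult tissue showed was small in embryos.

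Against adult tissue, 9 of 64 Hox islands were lower in embryos and none was higher, where 8.64% of all islands were called, 3.47% lower and 5.17% higher. The median difference was -0.217 over the Hox islands and 0.0368 over all islands. Of the 9, 5 belonged to groups 1 to 3, 2 to groups 4 to 8 and 2 to groups 9 to 13, 5 lay in Hoxa, 4 in Hoxb and none in Hoxc or Hoxd. Differentiated ES cells against the same 16 adult arrays gave 15 of 64 (23.4%) where 23.2% of all islands were called, 6 higher (14.4% of all islands) and 9 lower (8.73% of all islands), so the total matched the background. The 9 lower islands were 6 of groups 1 to 3 and 3 of groups 4 to 8, and the 6 higher were 1 of groups 1 to 3, 2 of groups 4 to 8 and 3 of groups 9 to 13. The Hoxb cluster held 8 of the 15, Hoxa 3, Hoxc 2 and Hoxd 2. The median difference was -0.0444 over the Hox islands and -0.00995 over all. Since both comparisons share the adult arrays, their values are given side by side for each gene and nothing is read from where they coincide.

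Hoxa2 was low in embryos and in differentiated ES cells alike. The embryos scored -1.05, -1.02, -0.664, -0.578 and -0.499 from 8.5 to 12.5 days. Embryoid bodies scored -0.613, retinoic acid -0.761, the endoderm arrays -0.679 and -0.939 and mesoderm -0.674. All 5 differentiated arrays lay below every adult array, and among the embryos only that of 12.5 days lay above an adult array, liver 1. Against the adult mean of 1.34 ± 1.11 (SD, n = 16) the differentiated cells differed by -2.07 (SE 0.422, adjusted p = 0.000514) and the embryos by -2.1 (SE 0.422, adjusted p = 0.00157). The undifferentiated lines scored -0.511 (EB5), 0.338 (J1) and -0.486 (TT2), so EB5 and TT2 lay below all adult arrays but liver 1.

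At 4 of the 5 islands of Hoxb3 the embryos and the differentiated cells were each called lower than adult tissue, and at all of these but Hoxb3 (3) some adult arrays overlapped them. Hoxb3 (1) (chr11:96148717-96149421, 5 probes, inside the gene) ran from -0.254 to 2.76 in adult tissue with a median of 1.53. It scored -0.144, -0.99, -0.557, -0.202 and -0.255 in embryos of rising age and -0.525, -0.178, 0.1, -0.453 and -0.641 in embryoid bodies, retinoic acid, both endoderm arrays and mesoderm. Only the arrays labelled liver 1 and brain 2 reached down into these values. The difference from adult tissue was -1.7 (SE 0.332, adjusted p = 0.000309) in differentiated ES cells and -1.79 (SE 0.332, adjusted p = 0.000727) in embryos.

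Hoxb3 (5) (chr11:96162015-96162357, 4 probes, inside the gene) ran from -0.173 to 2.94 in adult tissue with a median of 1.58. It scored 0.0819, -0.52, -0.597, -0.328 and -0.271 in embryos of rising age and -0.519, -0.0269, -0.454, -0.311 and -0.463 in the differentiated cells in the order given above. Again brain 2 and liver 1 alone among adult arrays overlapped them. The differences were -1.74 (SE 0.361, adjusted p = 0.000636) for differentiated ES cells and -1.71 (SE 0.361, adjusted p = 0.00248) for embryos. At Hoxb3 (4) the embryos scored -0.216, -0.611, -0.577, -0.272 and 0.198, and differed from adult tissue by -1.75 (SE 0.378, adjusted p = 0.00308). There the differentiated cells were spread widely, with 0.645 in embryoid bodies, 1.17 with retinoic acid, 0.0302 and -0.772 in endoderm and -0.435 in mesoderm. They overlapped 6 adult arrays and differed by -1.33 (SE 0.378, adjusted p = 0.0107), and without endoderm 2 the difference was -1.1 with an adjusted p of 0.059.

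Hoxb3 (3), a promoter island (chr11:96158018-96158434, 3 probes), was lower in adult tissue than its neighbours, from -0.0398 to 2.0 with a median of 0.413. The embryos scored -0.362, -0.0789, -0.485, -0.378 and -0.265 and the differentiated cells -0.52, -0.537, -0.197, -0.151 and -0.566. Neither group overlapped adult tissue, and the undifferentiated lines, at -0.136, -0.0804 and -0.625, did not either. The difference was -0.999 (SE 0.24, adjusted p = 0.00274) in differentiated ES cells and -0.918 (SE 0.24, adjusted p = 0.0138) in embryos. Hoxb3 (2), the promoter island next to it, had a mean of 0.139 in adult tissue, -0.02 in embryos and 0.113 in differentiated ES cells (0.542 in endoderm 1), and was called in none of these comparisons.

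Hoxa5, a gene of the lung and the neck vertebrae (chr6:52133274-52134506, 10 probes, inside the gene), ran from -0.334 to 3.57 in adult tissue with a median of 1.31. The embryos scored -0.722, -0.605, -0.414, -0.365 and -0.498, all below every adult array, with a difference of -1.82 (SE 0.406, adjusted p = 0.00396). Of the differentiated arrays 4 lay between -0.322 and -0.212 and endoderm 1 at 0.496, so that 3 adult arrays overlapped them, and the difference was -1.4 (SE 0.406, adjusted p = 0.0117). The other islands lower in embryos had smaller differences, -0.449 (SE 0.143, adjusted p = 0.0477) for Hoxa10 (1) and -0.372 (SE 0.115, adjusted p = 0.0393) for Hoxa11 (1). Hoxa10 (1) scored -0.648 to -0.972 in embryos and -0.647 to 0.0515 in adult tissue, which meet without overlap, and Hoxa11 (1) scored -0.843 to -0.396 in embryos and -0.665 to 0.173 in adult tissue, which overlap.

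**Figure D4:**
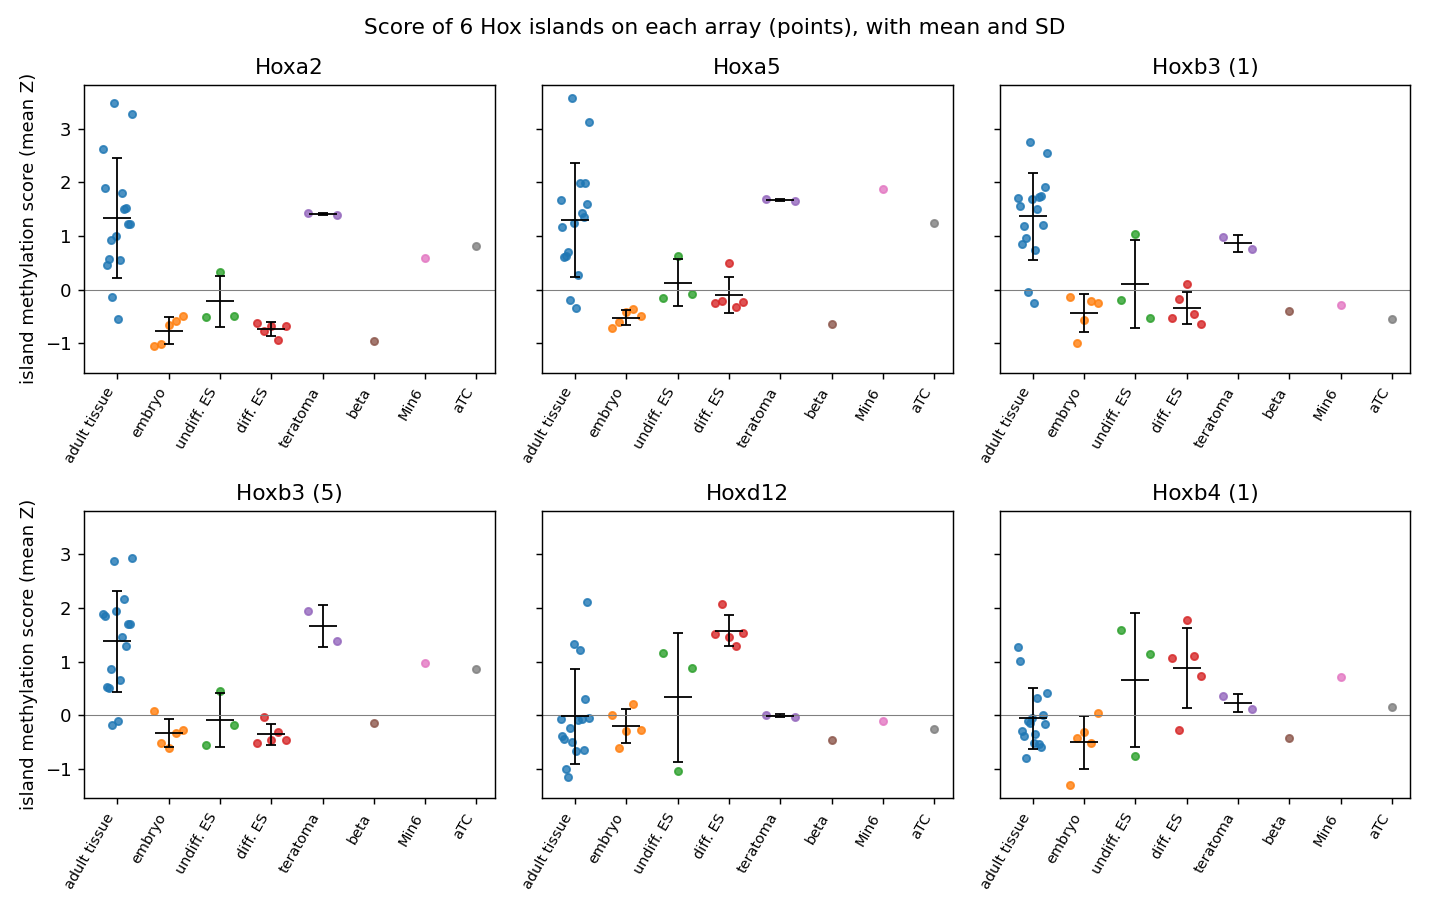
Island methylation score (mean Z) of 6 Hox islands on each array (points), with the mean and SD of each group of more than 1 array. At Hoxa2, Hoxa5, Hoxb3 (1) and Hoxb3 (5) the embryo and differentiated ES arrays lie among or below the lowest adult arrays (highest differentiated array at Hoxa5 0.496, endoderm 1) while the 2 teratoma arrays lie among the adult arrays. At Hoxd12 all 5 differentiated arrays lie between 1.3 and 2.07.

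Other islands were high in differentiated ES cells. Hoxd12, a gene of the limb ends (chr2:74475969-74476440, 4 probes, inside the gene), scored 1.52 in embryoid bodies, 2.07 with retinoic acid, 1.46 and 1.3 in endoderm and 1.54 in mesoderm. The adult arrays ran from -1.14 to 2.11 with a median of -0.158, and the embryos scored 0.00456, -0.612, -0.289, 0.208 and -0.273. All 5 differentiated arrays lay above every embryo, and only spleen 1 (2.11) and kidney 2 (1.33) among adult arrays reached their range. The difference was 1.59 (SE 0.374, adjusted p = 0.00218) from adult tissue and 1.77 (SE 0.462, adjusted p = 0.00669) from embryos. Lines EB5 and TT2 were already at 1.17 and 0.877 and J1 at -1.04, and differentiated against undifferentiated cells gave 1.24 (SE 0.533, adjusted p = 0.172). Against its own parent line each differentiated array was higher, by 0.293, 0.129 and 0.37 for endoderm 1, endoderm 2 and mesoderm over EB5 and by 0.64 and 1.19 for embryoid bodies and retinoic acid over TT2.

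Hoxd3 (2), a promoter island of a neck vertebra gene (chr2:74541324-74541606, 3 probes), scored 0.988, 0.541, 1.52, 0.968 and 1.11 in embryoid bodies, retinoic acid, both endoderm arrays and mesoderm. The adult arrays ran from -0.681 to 1.09 with a median of -0.017, and the embryos scored -0.086, -0.402, -0.391, -0.109 and -0.341. No embryo overlapped the differentiated cells, while 4 adult arrays did. The difference was 0.971 (SE 0.244, adjusted p = 0.00403) from adult tissue and 1.29 (SE 0.301, adjusted p = 0.00268) from embryos. Over its parent line it was higher on 4 arrays, by 0.199 to 0.904, and with retinoic acid it stood at -0.249 against TT2, the line on the label, and at 0.787 against J1, the line in the methods.

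Hoxb4 (1), a promoter island of a gene known for the expansion of blood stem cells (chr11:96130538-96131138, 5 probes), scored 1.07, -0.274, 1.77, 1.1 and 0.735 in the same order. The adult arrays ran from -0.796 to 1.28 with a median of -0.151, the embryos scored -1.3, -0.417, -0.316, -0.505 and 0.0475, and the lines EB5, J1 and TT2 scored 1.59, -0.749 and 1.14. The array with retinoic acid lay among the adult arrays. The difference was 0.934 (SE 0.321, adjusted p = 0.0338) from adult tissue, which lost the threshold without any 1 of embryoid bodies, endoderm 1, endoderm 2 or mesoderm, and 1.38 (SE 0.396, adjusted p = 0.013) from embryos. Hoxc8, a gene of the ribs (chr15:102818494-102819203, 5 probes, inside the gene), went the other way, at -0.813, -1.4, -0.522, -0.73 and -0.947. The adult arrays ran from -0.9 to 1.44 with a median of -0.402, and 4 of them, both colon arrays among these, reached into this range. The difference of -0.749 (SE 0.251, adjusted p = 0.0292) lost the threshold in 14 of 17 other settings, among them without embryoid bodies, without retinoic acid and without mesoderm.

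The Hoxa7 promoter island, Hoxa7 (2), separated the groups in both directions. Its gene acts in the trunk vertebrae (chr6:52150997-52151608, 6 probes). Embryoid bodies scored 0.699, retinoic acid 0.656, endoderm 0.174 and 0.563 and mesoderm 0.403, the adult arrays ran from -0.435 to 0.422 with a median of -0.111, and the embryos scored -0.401, -0.53, -0.345, -0.554 and -0.416. Differentiated cells and embryos did not overlap, while 2 adult arrays lay below the highest embryo and 2 above the lowest differentiated array. The difference of differentiated cells was 0.575 (SE 0.115, adjusted p = 0.000426) from adult tissue and 0.948 (SE 0.142, adjusted p = 2.19e-05) from embryos, and embryos differed from adult tissue by -0.373 (SE 0.115, adjusted p = 0.0395). The undifferentiated lines scored 0.292, 0.0628 and 0.736, overlapping the differentiated cells.

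Hoxb8 (1), inside a trunk gene known from myeloid leukaemia (chr11:96099086-96099499, 4 probes), was the only Hox island called between differentiated and undifferentiated ES cells, where 5.43% of all islands were called. Embryoid bodies scored -0.394, retinoic acid -0.465, endoderm -1.22 and -0.411 and mesoderm -0.367. The undifferentiated lines scored 0.0283, 0.0923 and -0.0559, the embryos 0.0418, -0.0265, -0.0562, -0.0947 and -0.117, and the adult arrays ran from -0.236 to 0.39. No array of those 3 groups was as low as the highest differentiated array. The difference was -0.592 (SE 0.143, adjusted p = 0.0133) from undifferentiated lines, -0.569 (SE 0.1, adjusted p = 9.22e-05) from adult tissue and -0.52 (SE 0.124, adjusted p = 0.00329) from embryos. Each differentiated array lay below its parent line, by -0.338 to -1.24. The call against undifferentiated cells was lost without J1. With slide as a fixed block the differences were -0.208 (adjusted p = 0.685), -0.324 (adjusted p = 0.125) and -0.306 (adjusted p = 0.692) in the same order, and with scan day -0.346 (adjusted p = 0.307), -0.354 (adjusted p = 0.0835) and -0.443 (adjusted p = 0.482). In these blocked fits the embryo level rests on the embryo of 8.5 days alone. The neighbouring island Hoxb8 (2) was low in every group, with means of -0.339 in adult tissue and -0.538 in differentiated ES cells.

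Of the other islands called against adult tissue, Hoxb2, a hindbrain gene, was lower in differentiated ES cells by -0.455 (SE 0.132, adjusted p = 0.012), with -0.875 to -0.474 on the 5 arrays against a median of -0.352 in adult tissue. Hoxc10 (2) was higher by 0.54 (SE 0.169, adjusted p = 0.02) and Hoxb13 by 0.431 (SE 0.133, adjusted p = 0.018). With slide or scan day as a fixed block the differences were 0.19 and 0.0994 at Hoxc10 (2). At Hoxb13 they were 0.0168 and -0.0475, and none of these passed the threshold. At both islands the differentiated arrays disagreed among themselves. Hoxc10 (2) scored 1.37 with retinoic acid, 0.408 and 0.281 in endoderm, and -0.269 and -0.446 in embryoid bodies and mesoderm, and Hoxb13, a gene of the tail bud and prostate, scored 0.646 with retinoic acid, 0.427 and 0.23 in endoderm, and -0.431 and -0.228 in embryoid bodies and mesoderm.

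Differentiated ES cells against embryos gave 10 of 64 Hox islands where 21.1% of all islands were called, 9 higher (11.8% of all islands) and 1 lower, Hoxb8 (1) (9.29% of all islands). The median difference was 0.186 over the Hox islands and -0.0392 over all islands. Besides those named above the higher islands were Hoxb1, Hoxc4 (1), Hoxc4 (2), Hoxa10 (1) with 0.58 (SE 0.177, adjusted p = 0.019) and Hoxb13 with 0.56 (SE 0.164, adjusted p = 0.015). Hoxb1, a gene of the fourth rhombomere, scored -0.143 in embryoid bodies, 0.816 with retinoic acid, 0.857 and 0.935 in endoderm and 0.323 in mesoderm, against -0.622, -0.596, -0.658, -0.49 and -0.301 in embryos. The groups did not overlap, and the difference was 1.09 (SE 0.345, adjusted p = 0.0234). Over its parent line Hoxb1 was higher on all 5 arrays, by 0.458 to 1.42.

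Hoxc4 (1) scored 0.884, 1.82, 1.65, 1.75 and 0.733 in embryoid bodies, retinoic acid, both endoderm arrays and mesoderm, against -0.0129, -0.374, 0.205, 0.0363 and 0.0349 in embryos. Hoxc4 (2), also a promoter island, scored 0.49, 0.301, 1.98, 0.925 and 0.851 against -0.393, -0.155, 0.0358, -0.316 and -0.253. Neither island overlapped between the groups. The differences were 1.39 (SE 0.422, adjusted p = 0.0186) and 1.12 (SE 0.34, adjusted p = 0.0182). Without endoderm 1 the count of Hox islands called against embryos was 5 (7.81%, against 17.1% of all islands). Without the embryos of 8.5 and 9.5 days the count was 4 (6.25%, against 15.6% of all islands). With slide, scan day or software as a fixed block it was 1, 1 and 3, where 0.69%, 2.68% and 1.41% of all islands were called. Hoxa7 (2) had differences of 1.72, 1.87 and 1.22 under these blocks. Hoxb13 had 0.155, 0.175 and 1.19 in the same order, while Hoxa10 (1) went to -0.0318 with slide. In these fits the embryo level rests on the embryo of 8.5 days alone, which shares slide, day and software version with TT2. The other embryos share none of these with another group of the fit, so the values do not compare all embryos. With normexp background correction 1 was called, Hoxd3 (2) with 0.71 (adjusted p = 0.0354), where 5.54% of all islands were.

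Retinoic acid, the signal that switches on Hox genes along the axis, had the highest Hox scores among the 5 differentiated arrays at the tail end. Groups 9 to 13 averaged 0.156 with retinoic acid and 0.0907 in endoderm 1, against -0.225 in endoderm 2, -0.414 in mesoderm and -0.41 in embryoid bodies. The 2 endoderm arrays thus lay apart. Hoxa11 (2) scored 0.653 with retinoic acid, 1.77 above TT2, while the other 4 arrays lay between -0.832 and -0.17 and above their parent line by 0.285 to 0.895. With 1 array of that treatment no test was made. Endoderm 1 was the only array on its slide, scan day and software version, and retinoic acid the only array on its slide and scan day. For these arrays treatment or replicate cannot be told apart from batch.

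The slide, the scan day and the software version bear on the comparisons with adult tissue. With slide as a fixed block the difference of differentiated ES cells from adult tissue was -0.935 at Hoxa2, -0.898 at Hoxb3 (1), -0.593 at Hoxb3 (5), -0.485 at Hoxa5, -0.391 at Hoxb3 (3) and -0.203 at Hoxb3 (4), none past the threshold, and the number of Hox islands called was 4 (6.25%), all higher, where 15.1% of all islands were called. At Hoxd12, Hoxd3 (2) and Hoxb4 (1) it was 1.74, 0.956 and 1.28, and only Hoxb4 (1) (adjusted p = 0.0145) stayed past it. With scan day as the block 2 Hox islands (3.12%, against 16.5% of all islands) were called, and with slide as a random block 14 (21.9%, against 25.2%) were. Slide as a fixed block compares differentiated and adult arrays only within the slides that hold both. These hold endoderm 2 with pancreas 1 and embryoid bodies with brain 2, so the values of those pairs, given next, are no separate check. Within the slides that hold both groups, endoderm 2 against pancreas 1 and embryoid bodies against brain 2 differed by -1.4 and -0.472 at Hoxa2, by -1.3 and -0.491 at Hoxb3 (1), by -0.926 and -0.0446 at Hoxa5, by -1.53 and 1.12 at Hoxb3 (4), by 1.74 and 1.75 at Hoxd12 and by 0.962 and 0.951 at Hoxd3 (2). Of these islands Hoxb3 (4) changed sign between the slides, as did Hoxb13 (0.319 and -0.286) and, over all 64 Hox islands, 22. The embryos share no slide, day or software version with adult tissue. In the fits with a fixed block only the embryo of 8.5 days is linked to it, through ES cell arrays (line TT2 by slide and day, TT2 and retinoic acid by software). The embryo values of those fits thus rest on 1 embryo, and for the embryos group and batch cannot be told apart. With slide, scan day or software as a fixed block 0 of 64 Hox islands were called between embryos and adult tissue, with differences of -1.64, -1.63 and -2.19 at Hoxa2, where 0.022%, 0.0% and 0.0514% of all islands were, and with slide as a random block 5 (7.81%, against 4.43%) were. Without the embryos of 8.5 and 9.5 days 2 (3.12%, against 2.38%) were called, with Hoxb3 (1) at -1.7 (adjusted p = 0.0282), Hoxa2 at -1.92 (adjusted p = 0.0531), Hoxa5 at -1.73 (adjusted p = 0.0766) and Hoxb3 (4) at -1.67 (adjusted p = 0.063). With normexp background correction in place of the scanner's, the difference of differentiated ES cells from adult tissue was -0.139 at Hoxb3 (3) (adjusted p = 0.628), 0.748 at Hoxd12 (adjusted p = 0.0958) and -1.2 at Hoxa5 (adjusted p = 0.0824). That of embryos from adult tissue was then -1.68 at Hoxa2 (adjusted p = 0.102) and -1.3 at Hoxa5 (adjusted p = 0.17). Both of these settings were chosen after seeing the data.

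Undifferentiated ES cells against adult tissue gave 0 of 64 Hox islands by limma, where 2.3% of all islands were called, with 12 Hox islands (18.8%, against 16.7% of all islands) at an unadjusted p under 0.05 (0 and 11 without moderation). The smallest adjusted p was that of Hoxb3 (5), 0.0724, with a difference of -1.48 (SE 0.443). The arrays of the lines, 1 each, were not alike, and line and array cannot be told apart. For J1 the deposited scores and the scanner ratios correlated at only 0.113. The J1 array scored 1.04 at Hoxb3 (1), 0.628 at Hoxa5 and 1.44 at Hoxd4 (2), where EB5 and TT2 lay between -0.522 and 0.288, and J1 scored -0.749 at Hoxb4 (1) and -1.04 at Hoxd12, where EB5 and TT2 lay between 0.877 and 1.59. Without J1, 5 Hox islands (7.81%) were called, where 8.45% of all islands were. By cluster the undifferentiated lines averaged -0.291 ± 0.114 for Hoxa, -0.145 ± 0.0859 for Hoxb, -0.407 ± 0.216 for Hoxc and 0.072 ± 0.132 for Hoxd (SD, n = 3), and the differentiated cells -0.126 ± 0.236, -0.0451 ± 0.156, -0.16 ± 0.256 and 0.202 ± 0.12 (SD, n = 5).

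The teratomas lay within the adult range at islands of Hoxa2, Hoxa5 and Hoxb3. Hoxa2 scored 1.42 and 1.4, Hoxa5 1.69 and 1.66, Hoxb3 (1) 0.977 and 0.75, Hoxb3 (4) 1.25 and 1.11 and Hoxb3 (5) 1.95 and 1.39, all inside the adult range and above every embryo array. They also lay above the 5 differentiated arrays, except that retinoic acid at Hoxb3 (4), with 1.17, lay between the teratomas. Groups 1 to 3 averaged 0.566 ± 0.126 and groups 9 to 13 averaged -0.271 (SD, n = 2). Hoxd12 scored 0.0167 and -0.0249, below all 5 differentiated arrays. The teratomas are labelled J1 and the differentiated arrays EB5 and TT2, so line and teratoma growth cannot be told apart here. Undifferentiated J1 scored 0.338 at Hoxa2, 0.628 at Hoxa5, 1.04, 0.656 and 0.451 at Hoxb3 (1), (4) and (5), and -1.04 at Hoxd12. That is 1 array, the one whose deposited scores and scanner ratios correlated at 0.113. For teratomas against adult tissue limma called 0 of 64 Hox islands and 0.316% of all islands (0 Hox islands without moderation). At an unadjusted p under 0.05 there were 2 Hox islands (3.12%, against 8.68% of all islands), Hoxb8 (2) and Hoxb9 (2), and 2 without moderation. The part of host tissue in these values was not tested.

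Both pancreatic lines scored above the β cells at many Hox islands. Min6 exceeded the β cells by more than 0.75 at 40 of 64 Hox islands (62.5%, against 10.5% of all islands), aTC did at 31 (48.4%, against 13.8%) and both did at 28 (43.8%, against 7.37%). Neither line fell under the β cells by more than 0.75 at any Hox island, where 6.96% of all islands did in Min6 and 9.08% in aTC. The median difference over the Hox islands was 0.913 for Min6 and 0.741 for aTC, against -0.153 and -0.212 over all islands. At 13 Hox islands (20.3%, against 2.75% of all islands) the β cells were below 0 and both lines above 0.75. Each of the 3 has 1 array, both lines share a slide that the β cells do not, and there is no replicate check, so these values compare the arrays and not the cell types. Cell line and slide cannot be told apart here.

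Both lines exceeded the β cells by more than 0.75 at 18 of 29 islands of groups 9 to 13, 4 of 22 of groups 4 to 8 and 6 of 13 of groups 1 to 3, and by cluster at 10 of 14 in Hoxa, 9 of 16 in Hoxd, 5 of 16 in Hoxc and 4 of 18 in Hoxb. Hoxd13, the digit and urogenital gene at the end of its cluster (chr2:74468499-74469742, 9 probes, of which 4 carry its name), scored -0.211 in β cells, 1.99 in Min6 and 1.96 in aTC. No adult array reached above 0.175 there and the embryos stayed at or under -0.128. Hoxd9, a gene of the limb and the lower spine (chr2:74498664-74499777, 9 probes, inside the gene), scored -0.557, 1.58 and 1.39, with no adult array above 0.0978. At these genes the lines thus stood outside the adult range.

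Hoxa4, a neck gene (chr6:52121668-52121912, 3 probes, promoter), had the widest difference, from -0.793 in β cells to 2.04 in Min6 and 1.81 in aTC, where the adult arrays ran from -0.639 to 1.08. Hoxa5 scored -0.635, 1.87 and 1.25, inside the adult range. Next came Hoxd11 (2), with differences of 2.08 and 1.91, and Hoxa11 (1), a forearm gene, with 1.96 and 1.96. At the other end Hoxd10 (3) scored lower in the lines than in the β cells by -0.601 and -0.532, Hoxb4 (2) by -0.397 and -0.435 and Hoxc4 (2) by -0.158 and -0.505. Islands of 1 gene went apart here. Hoxd10 (2) scored -0.718 in β cells, 0.799 in Min6 and 0.956 in aTC, and Hoxd10 (3) scored 0.395, -0.206 and -0.137. Hoxa11 (1) reached 1.47 in both lines while Hoxa11 (2) stayed at -0.84 and -0.859.

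Genes that work with or next to the Hox clusters were counted from lists. Of 9 cofactor genes of the Pbx, Meis and Pknox families, 4 had islands (5 in all), and 1 island was called higher in differentiated ES cells than in adult tissue and none in embryos. Over all islands 23.2% were called in differentiated ES cells (14.4% higher, 8.73% lower) and 8.64% in embryos (5.17% higher, 3.47% lower), and the counts of these short lists are to be read against those shares. It was the second island of Meis1, a DNA binding partner of Hox proteins, with 0.395 ± 0.393 (n = 5) against -0.306 ± 0.236 (n = 16, adjusted p = 0.00102). Of 13 genes beside or like the clusters, 9 had islands (18), with 5 higher and 1 lower in differentiated ES cells, and 2 lower in embryos. Evx1, the homeobox gene next to Hoxa13, had 3 of its 4 islands higher in differentiated ES cells, at chr6:52235533-52235920 with 0.426 ± 0.514 against -0.395 ± 0.196 in adult tissue (adjusted p = 8.4e-05). The means of that island in adult tissue and in embryos were both below 0.

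Of 9 genes of the retinoic acid pathway, 6 had islands (11), with 2 higher and 3 lower in differentiated ES cells and 1 lower in embryos. Cyp26a1, the enzyme that degrades retinoic acid, had an island at 0.00586 ± 0.171 in differentiated ES cells against -0.566 ± 0.161 in adult tissue (adjusted p = 5.7e-05). Of 18 Polycomb and trithorax genes, which hold Hox genes off or on, 14 had islands (23), with 2 higher and 4 lower in differentiated ES cells and 2 higher and 3 lower in embryos. Cbx8, a subunit of Polycomb complexes, had 1 island that fell from 1.83 ± 0.502 in adult tissue to 0.139 ± 0.139 in differentiated ES cells (adjusted p = 4e-06) and another that rose from 0.125 ± 0.364 to 1.33 ± 0.596 (adjusted p = 7.4e-05). In undifferentiated ES cells, teratomas and the test over 8 tissues limma called 0 islands of these lists against adult tissue.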

How the data were processed

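DNA of 34 samples was measured by mDIP on Agilent mouse CpG island arrays, with bound DNA in Cy5 and input in Cy3. The authors extracted the scans with Agilent Feature Extraction, and the deposited log10 ratios are background-subtracted and linearly normalized Cy5 over Cy3, per the file headers and the study's methods. The deposited intensities are median spot and background signals, and were used only for the normexp setting. The deposited score table holds the authors' Z-scores by probe melting temperature, without pooling, and covers 22 of the Hox islands. No genome build is given for the probe positions in the sources used here, and no column of per-sample values was set aside.

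From the log10 ratios, after leaving out 492 probes without coordinates and flagged or control spots, a Z-score was computed on each array and averaged over the probes of an island (at least 3 probes, gaps of at most 500 bases). The scores of 13616 islands were tested with limma 3.58.1 (R 4.3.3, lmFit and eBayes), with Benjamini-Hochberg adjustment over all islands and a threshold of 0.05. Adult, embryo, undifferentiated and differentiated ES arrays shared 1 fit, and tissues and teratomas had fits of their own. Groups follow the labels. The tests were checked on simulated data, in which 200 islands changed by 1 unit were recovered at 93.5% (differentiated ES cells) and 94% (embryos) in the comparisons with adult tissue and at 12.5% in the test over 8 tissues. The simulated noise was independent between arrays, while real arrays of 1 slide correlated at 0.39 in the fit of the groups. These rates therefore leave out batch and do not carry over to groups that batch separates. Tables were made with Python 3.11.15, numpy 2.4.6 and pandas 2.3.3.

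The members and all lists were chosen with earlier results of these data known. Islands with full statistics are the 10 islands called in differentiated ES cells that lay farthest from adult tissue, the 4 of largest difference of embryos, the 4 of largest mean difference of the lines from β cells, and the highest and lowest adult mean of each cluster. Other named islands are the remaining calls, or were chosen after their values were seen. Alternatives were the scale of the ratios, normexp (offset 50) on median signals, the deposited table, bright probes, at least 5 probes, medians, blocks by slide, scan day and software, 2 groups alone, a test without moderation and leaving out arrays.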

Additional observations from a re-analysis of the deposited data

Results flagged for a closer look

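In 52 groups of 4 to 10 arrays, over 26 islands or island means, 3 arrays stood far from the rest of their group, and chance alone gives about 5% of such groups. At Hoxd4 (2) (chr2:74528074-74528548) the array with retinoic acid scored 1.21, while the other 4 differentiated arrays lay between 0.519 and 0.626, a gap of 0.847 of the whole range. At Hoxa5 (chr6:52133274-52134506) endoderm 1 scored 0.496, while the other 4 differentiated arrays lay between -0.322 and -0.212, a gap of 0.865 of the range. The mean of paralogue groups 4 to 8 was -0.37 in the embryo of 8.5 days and between -0.215 and -0.197 in the other 4 embryos, a gap of 0.896 of the range. That embryo is also 1 of the 2 whose X-linked scores go against the labelled sex, and its part in the result was not tested. Without endoderm 1 the Hoxa5 difference from adult tissue was -1.55. The arrays of endoderm 1 and retinoic acid were each alone on their slide and scan day.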

How the results depend on the processing

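Counts of Hox islands called moved with the processing, and where a cause is not plain from fewer islands or arrays it was not tested. Under normexp the count against adult tissue was 8 for differentiated ES cells and 2 for embryos, and differentiated ES cells against embryos gave 1. Of all islands 12.8%, 0.911% and 5.54% were called in the same order. With the deposited table, which holds 22 of the 64 islands, these counts were 5, 4 and 3, undifferentiated ES cells against adult tissue gave 4 and colon against pancreas 7. Of all islands in it 22.3%, 7.95%, 19.7%, 26.4% and 7.81% were called in the same order. The 4 for undifferentiated ES cells were thus 18.2% against 26.4%. Bright probes (31 islands) gave 5 for embryos and 4 for differentiated ES cells against embryos, where 8.62% and 23.8% of all islands were called. At least 5 probes (37 islands) gave 6 for differentiated ES cells against adult tissue and 5 against embryos. These were 16.2% and 13.5%, where 21.0% and 19.3% of all islands were called. Log2 ratios centred on the median gave 6 for differentiated ES cells against embryos (9.38%, against 19.3% of all islands). For colon against pancreas they gave 0 (0.0% of all islands), as did normexp and the methods' t-test.

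Slide as a fixed block gave 4 islands against adult tissue in differentiated ES cells, 0 in embryos and 1 in undifferentiated ES cells, and 1 between differentiated ES cells and embryos. Scan day gave 2, 0, 0 and 1, and software 0 for embryos and 3 for differentiated ES cells against embryos. Slide as a random block gave 5 for embryos against adult tissue. The call of Hoxb8 (1) between differentiated and undifferentiated ES cells went to 0 under normexp, the slide and scan day blocks, the 2 groups alone and the methods' t-test, while the deposited table and at least 5 probes leave this island out, so their 0 says nothing of it. Without the embryos of 8.5 and 9.5 days the embryo count was 2, and that of differentiated ES cells against embryos 4.

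Leaving out single arrays gave 12 to 16 for differentiated ES cells against adult tissue, 6 to 7 for embryos, 5 to 12 for differentiated ES cells against embryos (5 without endoderm 1), 0 to 5 for undifferentiated ES cells (5 without J1), 0 to 2 between the ES groups (2 without embryoid bodies) and 0 to 17 for colon against pancreas, where a lone array was assumed to vary like the others. It gave 0 each time for brain, the 8 tissues and teratomas. Of all islands, leaving out single arrays called 18.2 to 24.8% for differentiated ES cells against adult tissue and 5.06 to 7.73% for embryos. The shares were 16.5 to 24.0% for differentiated ES cells against embryos, 0.0 to 8.45% for undifferentiated ES cells and 3.25 to 10.0% between the ES groups. Colon and pancreas arrays alone gave 14 in the test between tissues, and on them 26 islands were below 0, 3 above 0.75 and 4 mixed. Islands below 0 on all adult arrays numbered 3 with centred log2 ratios, 14 below 0.25, 1 below -0.25, and 10 with either replicate alone. Mixed islands numbered 6 in the deposited table, 9 with bright probes and 13 with 5 probes. For the lines the deposited table gave 18 (Min6), 19 (aTC) and 17 (both), and Min6 gave 25 with bright probes and 25 at a difference of 1. Both lines passed at 8.45% of all islands in the deposited table. The Hoxb mean in adult tissue was 0.565 with centred log2 ratios and -0.00427 with 5 probes.

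Of 263 alternatives for 14 named differences, 201 stayed past the threshold, 62 fell short and 0 changed sign. These 14 were picked as the largest called differences, and other called differences did change sign. In embryos against adult tissue Hoxb3 (3) went from -0.918 to 0.168 with slide as a fixed block. The embryo level rests there on 1 embryo. In differentiated ES cells against adult tissue Hoxb13 went from 0.431 to -0.0475 with scan day as a fixed block. Of 224 for 28 cluster and paralogue means, 39 moved by more than 1 SD. With a replicate block the counts were 0 for tissues, brain and teratomas and 14 for colon against pancreas. Deviations from the tissue mean of arrays with the same number correlated at -0.32 to 0.488 (median 0.0561, 28 pairs, 11 over 0.1). Since arrays of most tissue labels were unlike each other, this cannot decide whether the numbers pair arrays. In brain, kidney, liver, lung, muscle and spleen, arrays of number 1 had 97651 probes and shared 1 scan day. Arrays of number 2 had 88737 probes and later scan days. Normexp on mean signals was not run, as some arrays have median signals only. Precision is limited by the number of arrays and by probes near background.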
